A study of Gallus gallus with 88 samples.

Results

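The translation initiation and elongation factors on the chicken gene array were taken as the probe sets whose single gene symbol in the probe annotation begins with EIF or EEF. The rule found 51 probe sets for 50 genes among 20706 probe sets without controls, of which 12300 carry 1 symbol. EIF1 has 2 probe sets and every other gene has 1. A further 6 probe sets that name an EIF or EEF gene together with other genes were left out.

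Messenger RNA of hind muscle (M. gastrocnemius) from a commercial broiler line was measured in 88 birds, with 1 array per bird. The question was whether a short warm or cool period of incubation changes muscle gene expression in the embryo and at slaughter age. The H13 and L13 embryos were kept at 38.8 and 36.8 °C between embryonic day (ED) 10 and ED13, the C13 embryos at 37.8 °C, and all were sampled at ED13. The H10 and L10 embryos had these temperatures between ED7 and ED10, the C10 embryos stayed at 37.8 °C, and all were sampled at ED10. Each of these 6 groups held 8 embryos. At post-hatch day 35 (D35) each of the 4 treatments (H10, L10, H13, L13) gave 8 chickens, and 8 controls, 2 from C10 and 6 from C13, formed 1 group. By the methods, the warm groups also had a higher relative humidity during treatment, so temperature and humidity cannot be told apart in them. Animal numbers of the embryos fall into 2 series of unstated meaning, with all warm groups in 1, all cool groups in the other and controls in both.

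To make a protein, the small ribosomal subunit takes up the initiator tRNA with eIF2, is held together with other factors by eIF3, and is brought to the capped end of a messenger RNA by eIF4F, which consists of the cap binding protein eIF4E, the scaffold eIF4G and the helicase eIF4A. Before the next round eIF2 has to be reloaded by the exchange factor eIF2B, a step that the eIF2 kinases block under stress, and eIF4E is held back by the 4E binding proteins unless they are phosphorylated through mTORC1. During elongation eEF1A delivers the loaded tRNAs and eEF2 moves the ribosome on, and eEF2 kinase slows this last step. In mammals mature skeletal muscle fibres use the eEF1A2 form of eEF1A in place of eEF1A1.

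The values are log2 expression values as normalized before deposit. Array medians ranged from 7.90 to 8.29 for embryos, and D35 arrays had medians of 6.64 to 6.98, so the stages were described separately. Averaged over 8 skeletal muscle marker probe sets, embryo arrays had 10.73 to 12.10 and D35 arrays 11.61 to 12.33. The mean of 7 epidermis markers varied between 5.94 and 10.83 in embryos, with group medians of 8.56 in H13, 9.78 in L13, 9.97 in C13, 8.88 in H10, 8.94 in L10 and 9.32 in C10 embryos, and lay between 5.37 and 6.10 at D35. In 5 arrays over 50% of the members were the lowest or the highest of their group. These were L10 replicate 59 and C10 replicate 65 (lowest in 35 and 28 members), and C13 replicate 41, C10 replicate 70 and the D35 chicken L13_178 (highest in 34, 29 and 29 members). Each deviated the same way over all probe sets.

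More of the members than of all probe sets gave a signal above background. Of the 51, 35 (68.6%) had an embryo mean above the background level, below which 95% of 23 control probe sets for background lay, against 20.9% of all probe sets. At D35 this held for 29 members (56.9%), against 10.8% of all probe sets. Below it in both stages were the eIF2 kinases, EIF2B1, EIF2B3, EIF2B5, EIF2D, EIF2S2, EIF4E3, EIF4EBP2, EIF4ENIF1, EEFSEC, EEF2KMT and EIF1 probe set 15482460. EIF5B was below it only in embryos, and EIF2B4, EIF2S1, EIF2A, EIF6, EIF4G3, EIF5A2 and EEF1E1 only at D35. The same level was used for all probe sets of a stage and was not matched to their sequences. A mean below it therefore does not show that a member was not detected. The members also varied little between birds of a group. Their within-group SD on the log2 scale had a median of 0.12 in embryos, against 0.22 over all probe sets, and of 0.11 for the members above background, against 0.15 for all probe sets above background. It was smallest for EEF1A1 (0.05) and largest for EEF2KMT (0.33), a methyltransferase of eEF2. At D35 the median SD was 0.18, against 0.30 over all probe sets. For the members above background it was 0.15, against 0.20 for all probe sets above background. EEF1A2 was the least (0.07) and EEF2KMT the most (0.44) variable of the 51.

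The members differed mainly between ED13 and ED10 embryos. This difference was tested at each temperature, in 3 comparisons of different birds with 1 shared estimate of the spread. The warm and cool pairs differ in the treated interval as well as in age, and these cannot be told apart there. With limma and Benjamini-Hochberg adjustment over all probe sets at 0.05, 6 members rose and 11 fell in H13 against H10 embryos, where 14.3% of the probe sets on the array rose and 12.4% fell. In L13 against L10 embryos 6 members rose and 6 fell, where 9.76% of all rose and 15.2% fell. In C13 against C10 embryos 3 rose and 8 fell, where 11.8% of all rose and 16.4% fell. The members that rose were 11.8%, 11.8% and 5.88% of the 51 and those that fell 21.6%, 11.8% and 15.7%, on both sides of these backgrounds. The median difference of the members was -0.05, -0.03 and -0.02, against 0.00, -0.03 and -0.02 over all probe sets.

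In all, 23 members passed in at least 1 of the 3 comparisons and 28 in none, and no member rose in one and fell in another. The share of all probe sets that passed in at least 1 was not computed. These pooled counts therefore cannot be set against the array. The counts moved with the scaling of arrays, and so did their place against the backgrounds. Under quantile normalization the share of the members that fell was above that of the array in each comparison. The share that rose was below it. Under median centring both shares lay on both sides of the array. With quantile normalization 5 members rose and 21 fell in H13 embryos (13.6% and 18.2% over the array), 4 rose and 10 fell in L13 (11.1% and 16.4%), and 4 rose and 18 fell in C13 embryos (12.9% and 20%). With arrays centred on their medians 5 rose and 15 fell in H13 embryos (14.3% and 16.3% over the array), 9 rose and 6 fell in L13 (11.4% and 15.6%), and 6 rose and 14 fell in C13 embryos (13.4% and 18.3%).

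**Figure D1:**
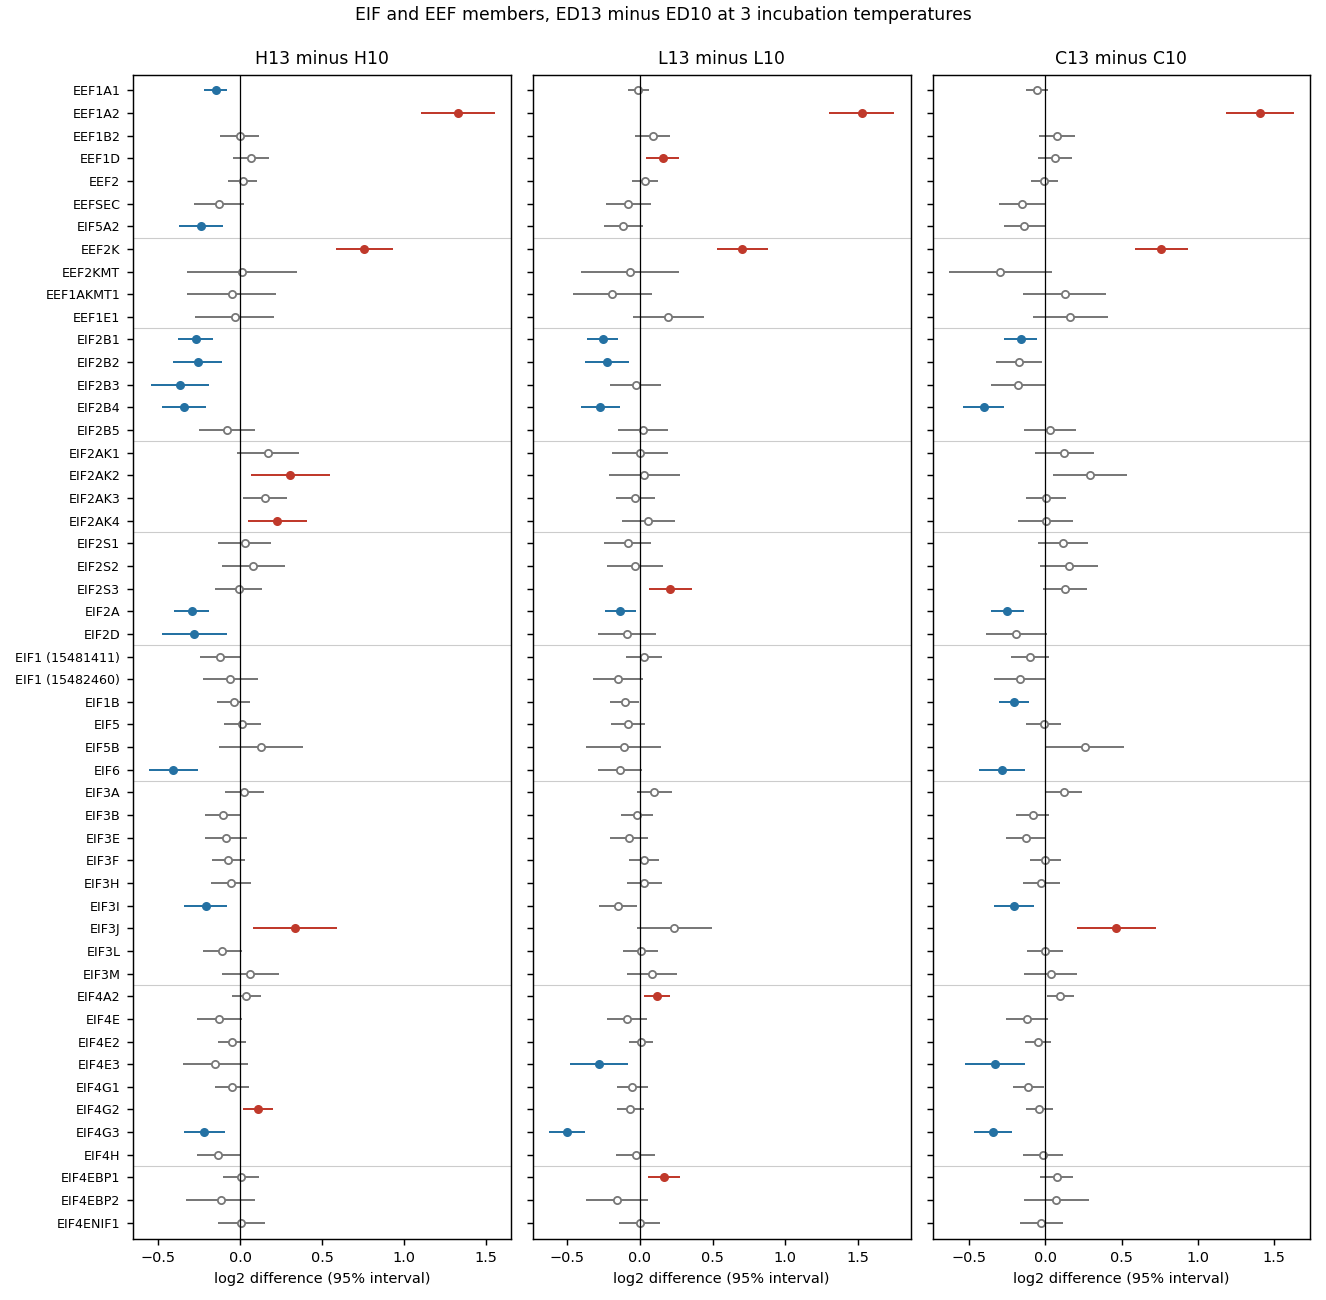
Log2 differences (x axis) of the 51 EIF and EEF probe sets (rows, by role) in H13 minus H10, L13 minus L10 and C13 minus C10 embryos, with 95% intervals from limma; red and blue filled points rose and fell at an adjusted p under 0.05, and open points did not pass. EEF1A2 stands far to the right in each panel (1.33, 1.52 and 1.41), EEF2K is next, and the eIF2B subunits lie mostly left of 0.

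The members that rose at all 3 temperatures were 2, the elongation factor EEF1A2 and the elongation regulator EEF2K. The share of all probe sets that rose or fell at all 3 temperatures was not computed. EEF1A2, the eEF1A form of muscle and nerve in mammals, ranged from 12.27 to 12.54 (median 12.45) in H13 embryos, against 10.75 to 11.40 (median 11.13) in H10 embryos. It ranged from 11.97 to 12.43 (median 12.18) in L13 embryos, against 10.12 to 10.997 (median 10.84) in L10 embryos. In C13 embryos it ranged from 12.07 to 12.69 (median 12.29), against 10.60 to 11.13 (median 10.89) in C10 embryos. In each pair every ED13 embryo lay above every ED10 embryo. The log2 differences were 1.33 (SE 0.11, limma adjusted p = 4.93e-13) in H13, 1.52 (SE 0.11, adjusted p = 2.06e-14) in L13 and 1.41 (SE 0.11, adjusted p = 9.58e-14) in C13 embryos, or 2.51-, 2.87- and 2.65-fold. In bulk tissue a change in the share of cells of a type and a change in RNA per cell cannot be told apart.

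The other was EEF2K, the kinase that inactivates eEF2. It ranged from 10.26 to 10.56 (median 10.40) in H13 embryos, against 9.42 to 9.89 (median 9.63) in H10 embryos. It ranged from 10.18 to 10.47 (median 10.31) in L13 embryos, against 9.35 to 9.95 (median 9.57) in L10 embryos. In C13 embryos it ranged from 10.09 to 10.49 (median 10.33), against 9.24 to 9.85 (median 9.52) in C10 embryos. The ranges did not overlap at any temperature. The log2 differences were 0.76, 0.70 and 0.76 in H13, L13 and C13 embryos (SE 0.08 each, limma adjusted p = 1.06e-09, 6.11e-09 and 8.98e-10), or 1.69-, 1.63- and 1.69-fold. Its substrate EEF2 had medians of 12.76 in H13, 12.80 in L13 and 12.80 in C13 embryos, against 12.79 in H10, 12.76 in L10 and 12.81 in C10 embryos. The 95% intervals of the 3 differences of EEF2 lay between -0.09 and 0.12.

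Ranges that did not overlap were about as common among the members as over the array. There were 4 such members in H13 against H10 embryos (7.27% of all probe sets), 3 in L13 against L10 (7.63%) and 4 in C13 against C10 (8.29%).

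**Figure D2:**
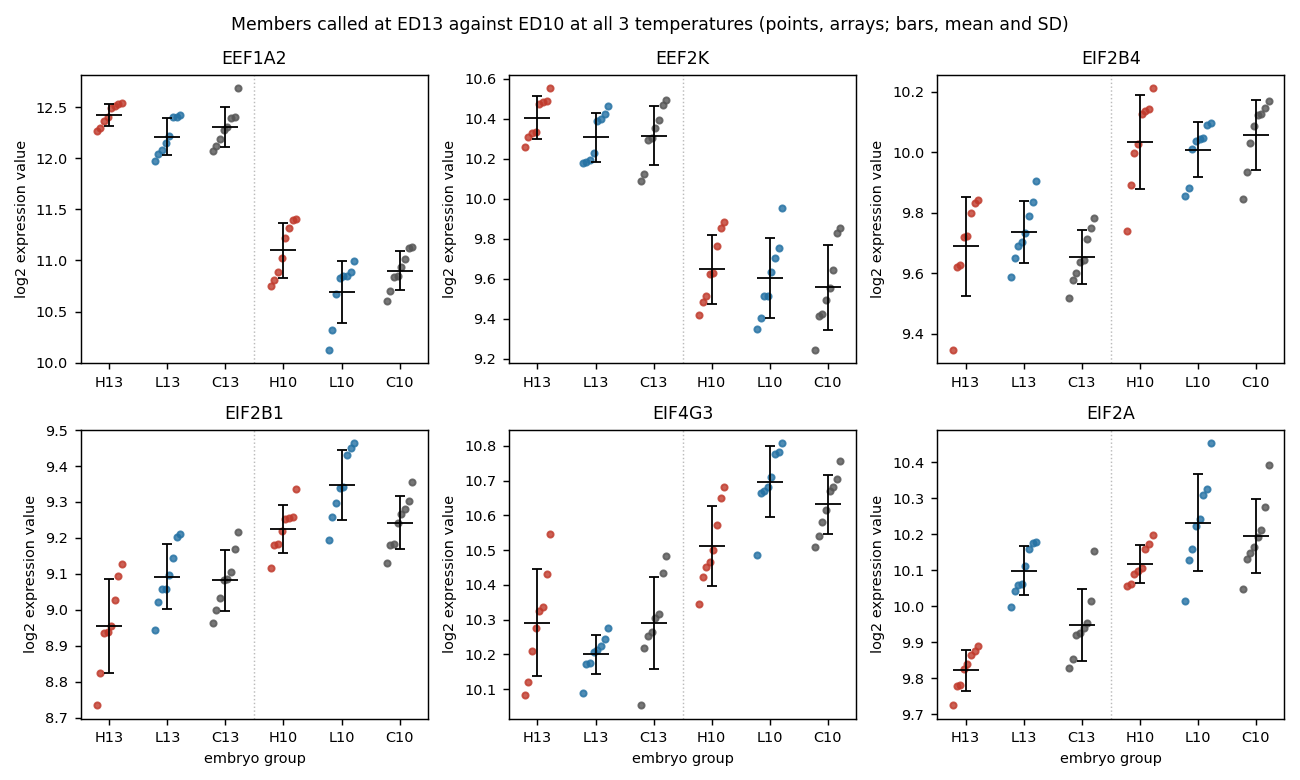
Log2 expression values (y axis) of the 6 members that passed at all 3 temperatures in each embryo group (x axis); points are arrays, bars the mean and SD of 8. EEF1A2 and EEF2K are higher in every ED13 embryo than in the ED10 embryos of the same temperature, while EIF2B4, EIF2B1, EIF4G3 and EIF2A are lower on average, with overlap in some pairs.

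Markers of several tissues differed over the same interval. Over the array 14.3% of the probe sets rose and 12.4% fell in H13, 9.76% and 15.2% in L13, and 11.8% and 16.4% in C13 embryos. Of 8 muscle marker probe sets 5 rose in H13 against H10, 6 in L13 against L10 and 5 in C13 against C10 embryos, and none fell. Their mean per array lay between 11.69 and 12.03 in H13 embryos against 10.82 and 11.67 in H10, between 11.56 and 11.96 in L13 against 10.73 and 11.40 in L10, and between 11.63 and 12.10 in C13 against 10.75 and 11.35 in C10. All 6 adipocyte marker probe sets rose in each comparison. Of 6 connective tissue markers 4 rose in H13, 3 rose and 1 fell in L13, and 4 rose and 1 fell in C13 embryos. Of 10 cartilage markers 3 fell and 1 rose in H13, 8 fell in L13 and 7 fell in C13 embryos. Of 7 erythroid marker probe sets 2 fell and 1 rose in H13, 3 fell in L13 and 2 fell in C13 embryos. None of 7 epidermis marker probe sets passed in any of these comparisons. Of 7 leukocyte marker probe sets 1 rose in H13, 1 fell in L13 and 1 rose in C13 embryos. The epidermis markers were used as a covariate in an alternative fit. Otherwise the part of these differences in the results of the members was not tested.

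Within groups, EEF1A2 was compared with the mean of the muscle markers. EEF1A2 and EEF2K were chosen for this after their values had been seen, and 12 relations were computed. Pearson's r of EEF1A2 was 0.87 in L13 (n = 8, two-sided exact permutation p = 0.00521), 0.93 in C13 (exact p = 0.00362) and 0.88 in H10 embryos (exact p = 0.00382), each with an adjusted p of 0.0208. Spearman's rho was 0.79, 0.83 and 0.83 in these groups (exact p = 0.0279, 0.0154 and 0.0154) and did not pass after adjustment (0.0987, 0.0923 and 0.0923). Without the 2 embryos farthest from the median of the marker mean r was 0.74, 0.86 and 0.79. In H13, L10 and C10 embryos r was 0.69, 0.89 and 0.65 and did not pass (exact permutation, adjusted p = 0.0764, 0.0764 and 0.0958), and it was 0.24, 0.03 and 0.91 without the 2 farthest embryos. For EEF2K r lay between 0.26 and 0.75 and no relation passed, with the smallest adjusted p at 0.0764 (exact permutation).

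**Figure D3:**
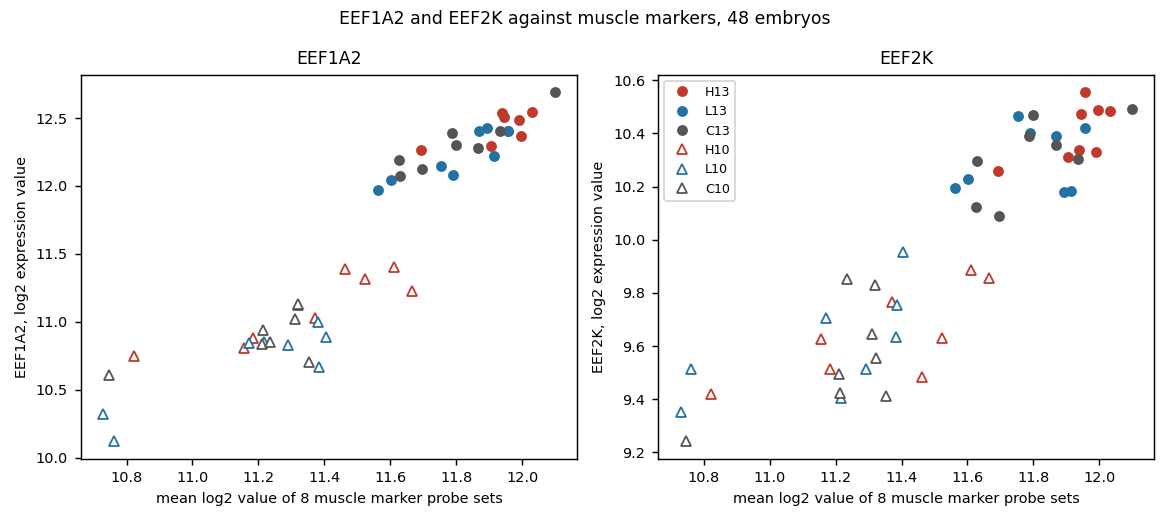
Log2 values of EEF1A2 and EEF2K (y axes) against the mean log2 value of 8 muscle marker probe sets (x axis) in 48 embryos, with 1 point per array. Every ED13 embryo lies above every ED10 embryo in both genes, with marker means of at least 11.56 at ED13 and at most 11.67 at ED10.

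The other elongation factors differed less. EEF1A1, the widespread form of eEF1A, ranged from 13.24 to 13.34 (median 13.31) in H13 embryos, against 13.37 to 13.49 (median 13.46) in H10 embryos. The ranges did not overlap, and it fell by 0.15 on the log2 scale (SE 0.03, limma adjusted p = 0.000307). In L13 and C13 embryos its differences of -0.01 and -0.05 did not pass (adjusted p = 0.88 and 0.215). EIF5A2, a close relative of the elongation factor eIF5A, fell by 0.24 in H13 embryos (limma adjusted p = 0.00311), and EEF1D, a subunit of the complex that reloads eEF1A, rose by 0.16 in L13 embryos (adjusted p = 0.0196). The call of EEF1D was lost with quantile normalization and without L10 replicate 61 or L13 replicate 75. EEF1B2, EEFSEC, EEF2KMT, EEF1AKMT1 and EEF1E1 passed in none of the 3 comparisons. Whether probes for relatives of alike sequence, such as EEF1A1 and EEF1A2, share signal was not tested.

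Among the initiation factors, members of the eIF2B complex, which reloads eIF2 with GTP, fell at each temperature. Of its 5 subunits 4 fell in H13, 3 in L13 and 2 in C13 embryos, and none rose. Over the array 12.4%, 15.2% and 16.4% of the probe sets fell in these comparisons. EIF2B4 ranged from 9.34 to 9.84 (median 9.72) in H13 embryos, against 9.74 to 10.21 (median 10.08) in H10 embryos. It ranged from 9.59 to 9.91 (median 9.72) in L13 embryos, against 9.85 to 10.10 (median 10.04) in L10 embryos, and from 9.52 to 9.78 (median 9.64) in C13 embryos, against 9.84 to 10.17 (median 10.10) in C10 embryos. The groups overlapped in the warm and the cool embryos and not in the controls. EIF2B4 fell by 0.35, 0.27 and 0.40 (SE 0.06 each, limma adjusted p = 3.44e-05, 0.000965 and 2.09e-06).

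EIF2B1, a regulatory subunit of eIF2B, ranged from 8.73 to 9.13 in H13, 8.94 to 9.21 in L13 and 8.96 to 9.22 in C13 embryos, against 9.12 to 9.34 in H10, 9.19 to 9.46 in L10 and 9.13 to 9.35 in C10 embryos. The ranges overlapped in each pair. It fell by 0.27, 0.25 and 0.16 (SE 0.05 each, limma adjusted p = 3.59e-05, 9.8e-05 and 0.0117), with all its group means below the background level. Within number series 1 and 2 its differences in C13 embryos were -0.14 and -0.18 and did not pass (adjusted p = 0.205 and 0.0898). EIF2B2 fell by 0.26 in H13 and by 0.23 in L13 embryos (limma adjusted p = 0.00488 and 0.0156), and its difference of -0.17 in C13 embryos did not pass (adjusted p = 0.0727).

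EIF2B3 had medians of 9.18 in H13, 9.53 in L13 and 9.40 in C13 embryos, against 9.54 in H10, 9.56 in L10 and 9.51 in C10 embryos. It fell by 0.37 in H13 embryos (limma adjusted p = 0.000679), while its differences of -0.03 in L13 and -0.18 in C13 embryos did not pass (adjusted p = 0.868 and 0.109). All its group means lay below the background level of 9.71. The interaction test of whether this difference between the days itself differed between warm and control embryos did not pass (-0.19, limma adjusted p = 0.805). EIF2B5, the catalytic subunit, had differences of -0.08, 0.03 and 0.03, with 95% intervals between -0.24 and 0.20.

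Of the 4 eIF2 kinases, which phosphorylate eIF2 and so block eIF2B, 2 rose in H13 against H10 embryos, where 14.3% of all probe sets rose. None passed in L13 or C13 embryos. EIF2AK2 (PKR, activated by double-stranded RNA) rose by 0.30 (SE 0.12, limma adjusted p = 0.0477) and EIF2AK4 (GCN2, activated by lack of amino acids) by 0.22 (SE 0.09, adjusted p = 0.0469). The call of EIF2AK2 was lost without any of 11 single arrays and that of EIF2AK4 without any of 10. That of EIF2AK4 was also lost with only the compared groups in the fit. In L13 and C13 embryos EIF2AK2 had differences of 0.03 and 0.29 (adjusted p = 0.9 and 0.0564) and EIF2AK4 of 0.06 and 0.00. All group means of the 4 kinases lay below the background level. No kinase passed the interaction tests.

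Of eIF2 itself, the alpha subunit EIF2S1, which carries the phosphorylated site, and the beta subunit EIF2S2 passed in no comparison, with differences between -0.08 and 0.16. The gamma subunit EIF2S3 rose by 0.21 in L13 against L10 embryos (limma adjusted p = 0.0179). This call was lost without L10 replicate 59 or 61 and with only the compared groups in the fit. EIF2A, which can bring the initiator tRNA to the ribosome in place of eIF2, ranged from 9.72 to 9.89 (median 9.83) in H13 embryos, against 10.05 to 10.20 (median 10.10) in H10 embryos, with no overlap. It fell by 0.30 in H13 and by 0.25 in C13 embryos (SE 0.05 each, limma adjusted p = 6.23e-06 and 8.93e-05). Its fall of 0.13 in L13 embryos (limma adjusted p = 0.0387) was lost without any of 9 single arrays and with only the compared groups in the fit. EIF2D, another carrier of the initiator tRNA, fell by 0.28 in H13 embryos (adjusted p = 0.0226), but did not pass without H13 replicate 36, and its group means also lay below the background level.

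Of the factors that pick the start site and join the subunits, EIF6, which keeps the large subunit apart, ranged from 9.97 to 10.39 (median 10.17) in H13 embryos, against 10.33 to 10.80 (median 10.60) in H10 embryos. In C13 embryos it ranged from 10.05 to 10.51 (median 10.30), against 10.51 to 10.86 (median 10.59) in C10 embryos. The ranges overlapped, and EIF6 fell by 0.41 in H13 and by 0.28 in C13 embryos (SE 0.07 each, limma adjusted p = 1.34e-05 and 0.00149). The difference of -0.14 in L13 embryos did not pass (adjusted p = 0.174). EIF1B, a close relative of the start site factor eIF1, fell by 0.20 in C13 embryos (adjusted p = 0.000523). Both EIF1 probe sets, EIF5 and EIF5B passed in none.

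Of 9 subunits of eIF3, the scaffold of the initiation complex, 7 passed in none of the 3 comparisons, with differences between -0.13 and 0.12. The other subunits went opposite ways. EIF3J, a loosely bound subunit, ranged from 10.18 to 10.74 (median 10.30) in H13 embryos, against 9.60 to 10.44 (median 10.06) in H10 embryos, and from 10.04 to 10.84 (median 10.42) in C13 embryos, against 9.20 to 10.24 (median 10.03) in C10 embryos. The ranges overlapped, and EIF3J rose by 0.33 and 0.46 (SE 0.12 each, limma adjusted p = 0.0417 and 0.00337), although the call in H13 embryos was lost without any of 7 single arrays. EIF3I fell by 0.21 in H13 and by 0.21 in C13 embryos (adjusted p = 0.00703 and 0.008). In L13 embryos EIF3J had a difference of 0.24 and EIF3I of -0.15 (adjusted p = 0.178 and 0.0646).

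Among the cap binding factors EIF4G3, a large scaffold of eIF4F like eIF4G1, fell at all 3 temperatures. It ranged from 10.08 to 10.55 (median 10.30) in H13 embryos, against 10.34 to 10.68 (median 10.48) in H10 embryos. It ranged from 10.09 to 10.28 (median 10.21) in L13 embryos, against 10.49 to 10.81 (median 10.70) in L10 embryos, and from 10.05 to 10.48 (median 10.28) in C13 embryos, against 10.51 to 10.76 (median 10.64) in C10 embryos. The groups overlapped in the warm embryos and not in the cool or control embryos. It fell by 0.22, 0.50 and 0.34 (SE 0.06 each, limma adjusted p = 0.00345, 6.1e-09 and 9.67e-06). The interaction tests of these differences against that of the controls gave 0.12 for the warm and -0.16 for the cool embryos and did not pass (adjusted p = 0.837 and 1.0).

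EIF4E3, a cap binding relative of eIF4E, fell by 0.28 in L13 and by 0.33 in C13 embryos (limma adjusted p = 0.0263 and 0.00623). Its group means lay below the background level. The call in L13 embryos was lost without any of 7 single arrays and with only the compared groups in the fit. EIF4G2, an eIF4G relative that does not bind eIF4E, rose by 0.11 in H13 embryos (adjusted p = 0.0449), and the helicase EIF4A2 rose by 0.12 in L13 embryos (adjusted p = 0.0299). These calls were lost with quantile normalization and with only the compared groups in the fit. They were also lost without any of 12 single arrays for EIF4G2 and any of 6 for EIF4A2. The call of EIF4G2 was lost with arrays centred on their median too. EIF4E, EIF4E2, EIF4G1 and EIF4H passed in none. Of the eIF4E inhibitors EIF4EBP1, through which mTORC1 acts, ranged from 10.91 to 11.23 (median 11.07) in L13 embryos, against 10.78 to 11.04 (median 10.92) in L10 embryos. It rose by 0.17 (SE 0.05, limma adjusted p = 0.01), and in H13 and C13 embryos its differences of 0.00 and 0.07 did not pass.

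Neighbouring genes of the pathway were counted by list. Over the array 14.3% of the probe sets rose and 12.4% fell in H13, 9.76% and 15.2% in L13, and 11.8% and 16.4% in C13 embryos. Of 15 mTORC1 and TOP control probe sets 4 rose and 1 fell in H13, 4 rose and 2 fell in L13, and 4 rose and 4 fell in C13 embryos. The same 4 genes rose each time. They were DEPTOR, a subunit that inhibits mTOR (0.73, 0.72 and 0.77 on the log2 scale), TSC1, the partner of TSC2 in the complex that restrains mTORC1 (0.64, 0.58 and 0.60), and the sestrins SESN1 (0.33, 0.37 and 0.39) and SESN3 (0.36, 0.31 and 0.34), which restrain mTORC1 under stress. Those that fell were MLST8, a subunit of the mTOR complexes, in H13 (-0.18), and LARP1, which binds TOP messenger RNAs, and TSC2 in L13 (-0.20 and -0.18) and C13 embryos (-0.23 and -0.24), where the mTORC1 subunit RPTOR and the amino acid signalling GTPase RRAGC fell too (-0.20 each). Of 12 integrated stress response probe sets 3 rose and 1 fell in H13, 2 rose and 2 fell in L13, and 4 rose and 1 fell in C13 embryos. ATF4, the transcription factor translated when eIF2 is phosphorylated, rose in probe set 15400141 each time (0.37, 0.23 and 0.31) and in probe set 15387652 in H13 and C13 embryos (0.63 and 0.36), and ASNS, asparagine synthetase, fell (-0.58, -0.56 and -0.54). ATF3 in H13 (0.38), CEBPB in L13 and C13 (0.41 and 0.42) and PHGDH in C13 embryos (0.96) also rose. SLC7A11 fell in L13 embryos (-0.62). Of 16 cytosolic tRNA synthetases 4 fell in H13, 1 in L13 and 4 in C13 embryos and none rose. AARS1, alanyl-tRNA synthetase, was among them each time (-0.43, -0.19 and -0.39). Of 12 probe sets of other translation factors 2 rose in H13, 1 rose and 2 fell in L13, and 1 rose and 1 fell in C13 embryos. LARP1 was counted both here and among the mTORC1 and TOP control probe sets. TPT1 went both ways in L13 embryos, with 0.29 in probe set 15406720 and -0.33 in probe set 15406718. Of 6 mitochondrial translation factors 2 rose in H13 embryos and none passed otherwise.

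The comparison of treated with control embryos asked for an immediate effect of incubation temperature. No member passed in any of the 4 comparisons (limma). In H10 against C10 embryos 0.13% of all probe sets passed, in L10 against C10 0.0%, in H13 against C13 0.00966% and in L13 against C13 0.0193%. An unadjusted p under 0.05 was reached by 8 members in H10 (9.3% of all probe sets), 3 in L10 (4.3%), 8 in H13 (10.4%) and 5 in L13 embryos (7.4%). Every other setting tried also gave 0 members at the adjusted threshold. The 95% intervals lay within 0.25 of 0 on the log2 scale for 36 members in H10, 40 in L10, 36 in H13 and 37 in L13 embryos. All members lay within 0.5 in H10 and H13 embryos, and all but EEF2KMT in L10 and L13 embryos. The comparisons of each day share the control embryos. All 7 epidermis markers had a lower mean in H10 and H13 embryos than in the controls, with median differences of -0.69 and -1.05. In L10 and L13 embryos 6 and 3 of the 7 were lower, with median differences of -0.28 and 0.02. All 8 muscle markers were higher in H10 and H13 embryos than in the controls (median differences of 0.11 and 0.14). In H10 embryos all 10 cartilage markers were lower (-0.405). In H13 embryos all 6 adipocyte (0.36), 7 erythroid (0.10) and 6 connective tissue markers (0.04) were higher and all 7 leukocyte markers lower (-0.04). In L13 embryos all 6 connective tissue markers were lower (-0.04). The remaining lists went both ways. None of these marker differences passed.

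**Figure D4:**
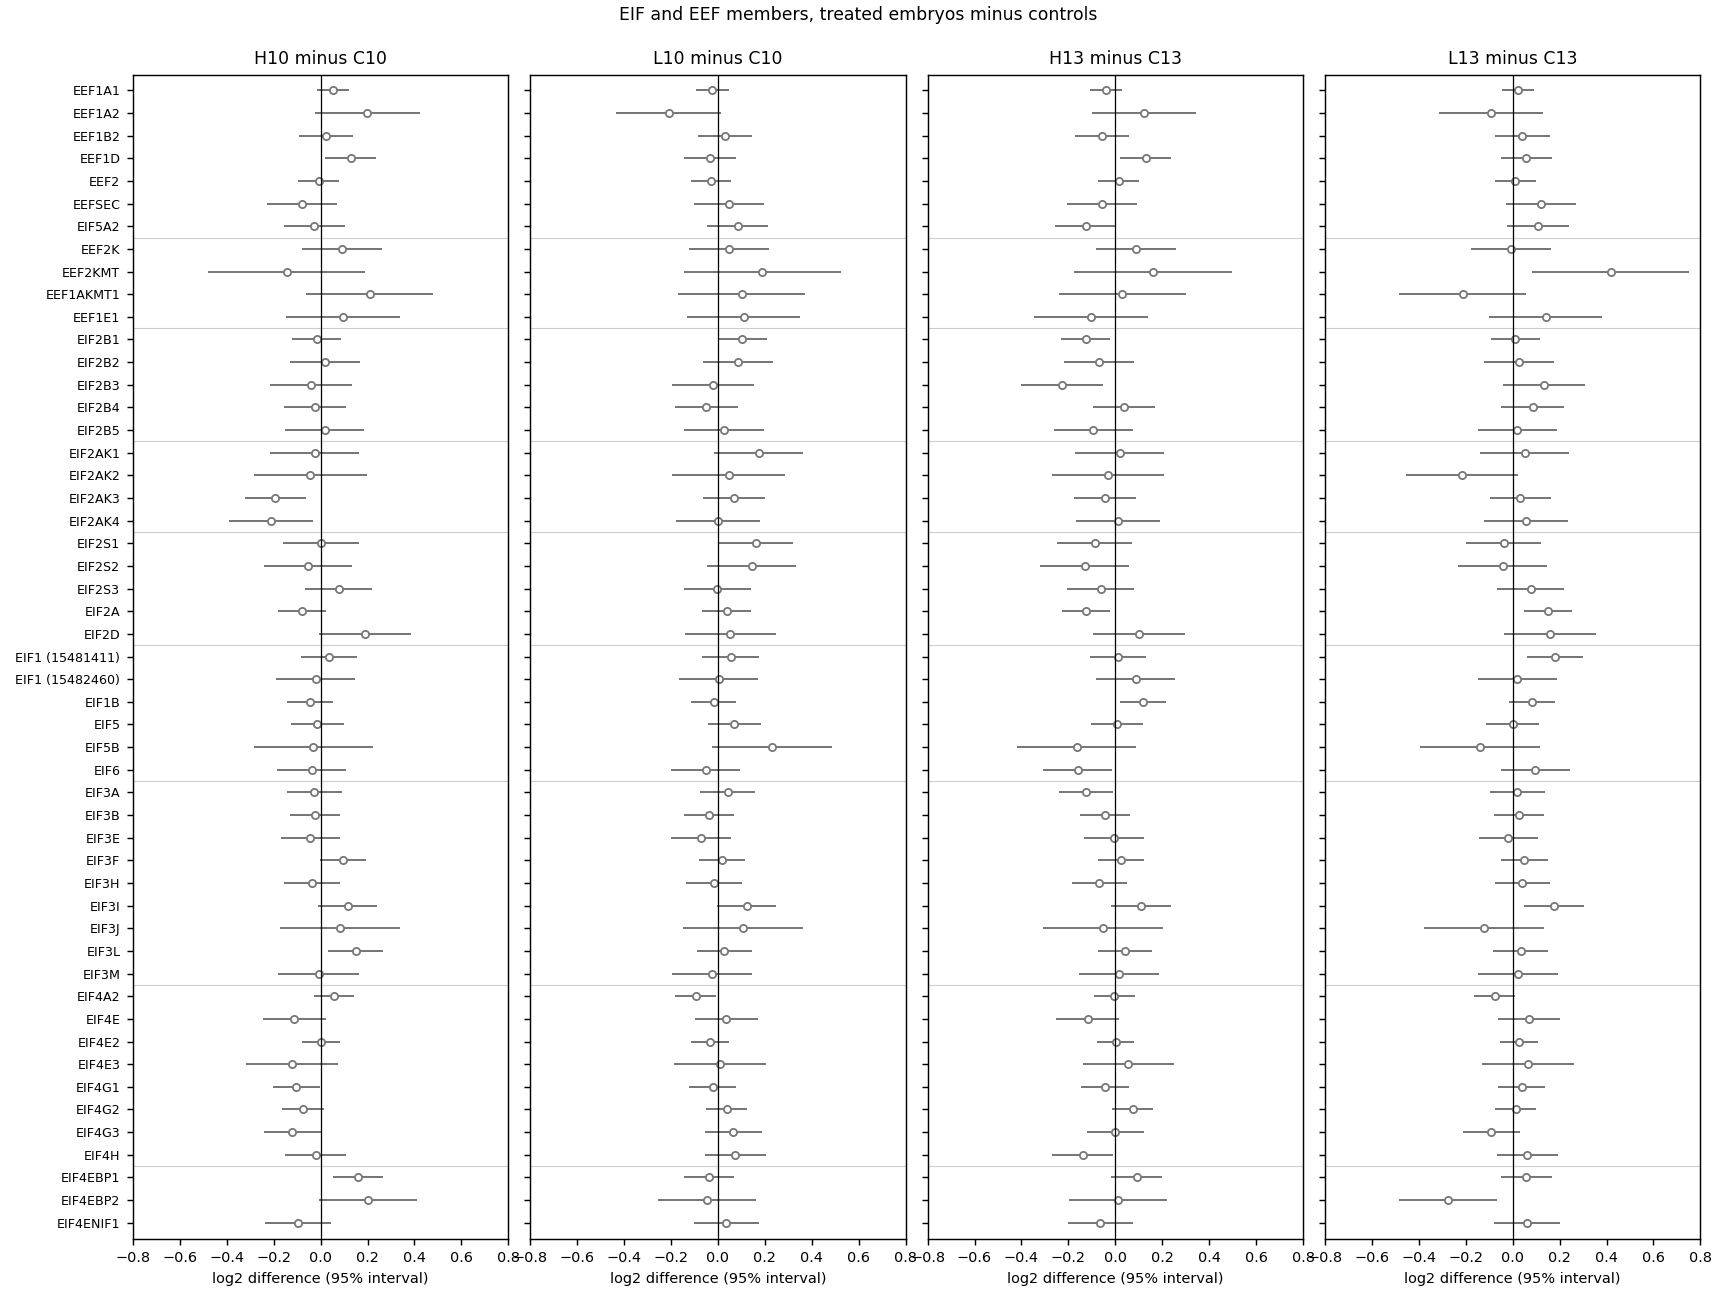
Log2 differences (x axis) of the 51 EIF and EEF probe sets (rows, by role) between treated and control embryos in 4 comparisons, with 95% intervals from limma; open points did not reach an adjusted p of 0.05. All points are open.

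In the H10 embryos the smallest p belonged to EIF4EBP1 and EIF2AK3. EIF4EBP1 ranged from 11.01 to 11.31 (median 11.10) in H10 embryos, against 10.75 to 11.04 (median 10.996) in C10 embryos. All 8 H10 embryos lay above the control mean, the ranges overlapped, and the difference of 0.16 (95% interval 0.06 to 0.26) did not pass (limma adjusted p = 0.229). EIF2AK3 (PERK, activated by stress of the endoplasmic reticulum) ranged from 8.98 to 9.42 (median 9.24) in H10 embryos, against 9.21 to 9.59 (median 9.47) in C10 embryos. All 8 H10 embryos lay below the control mean, and the difference was -0.19 (95% interval -0.32 to -0.07, adjusted p = 0.242). All 4 kinases had differences below 0 in these embryos, but with arrays centred or quantile normalized, or without the arrays that stand apart, 1 of the 4 lay above 0. EIF3L, EEF1D, EIF2AK4 and EIF4G1 followed with differences of 0.15, 0.13, -0.21 and -0.10 (limma adjusted p between 0.34 and 0.49).

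In L10 against C10 embryos EIF4A2 (-0.10), EIF2B1 (0.10), EIF2S1 (0.16), EIF3I (0.12), EEF1A2 (-0.21) and EIF2AK1 (0.17) had the smallest p, all with a limma adjusted p of 0.951. In H13 against C13 embryos they were EIF2B3 (-0.23), EIF1B (0.12), EIF2A (-0.13), EIF2B1 (-0.13), EEF1D (0.13) and EIF6 (-0.16), with adjusted p between 0.354 and 0.426. EIF2B3 ranged from 8.89 to 9.34 (median 9.18) in H13 embryos, against 9.05 to 9.67 (median 9.40) in C13 embryos, with all 8 H13 embryos below the control mean and overlapping ranges. In L13 against C13 embryos they were EIF1 (0.18, probe set 15481411), EIF2A (0.15), EIF3I (0.18), EIF4EBP2 (-0.28), EEF2KMT (0.42) and EIF4A2 (-0.08), with adjusted p between 0.375 and 0.724.

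The median difference of the members lay near that of all probe sets. It was -0.02 against -0.03 over all probe sets in H10, 0.04 against 0.03 in L10, 0.00 against 0.01 in H13, and 0.03 against 0.01 in L13 embryos. No interaction of temperature with the interval passed for any member in limma (0.00966% of all probe sets passed for warm and 0.0% for cool embryos). An unadjusted p under 0.05 was reached by 3 members for the warm embryos (7.55% of all), EIF4G2 (0.15), EIF1B (0.16) and EEF1A1 (-0.09), and by 1 for the cool embryos (3.48%), EIF5B (-0.37). The smallest adjusted p were 0.505 and 1.0.

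At D35 the question was whether an effect of the treatment was still measurable. No member passed in H10, L10, H13 or L13 chickens against the controls, where 0.0%, 0.0%, 0.00483% and 0.0145% of all probe sets passed in limma. None passed in H13 against H10 (0.00483%) or L13 against L10 chickens (0.0%) either. An unadjusted p under 0.05 was reached by 1 member in H10 (2.83% of all probe sets), 0 in L10 (6.29%), 2 in H13 (3.91%) and 5 in L13 chickens (12.7%) against the controls. In H13 against H10 chickens 1 reached it (3.77%) and in L13 against L10 chickens 5 did (8.02%). Every setting tried gave 0 members at the adjusted threshold. The paper reports a higher D35 body weight after warm incubation and adjusted its microRNA analysis at D35 for slaughter weight. Body weight was not in the fits used here. The 95% intervals lay within 0.5 of 0 for 49 members in H10, 50 in L10, 48 in H13 and 44 in L13 chickens, whose comparisons share 1 group of controls.

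**Figure D5:**
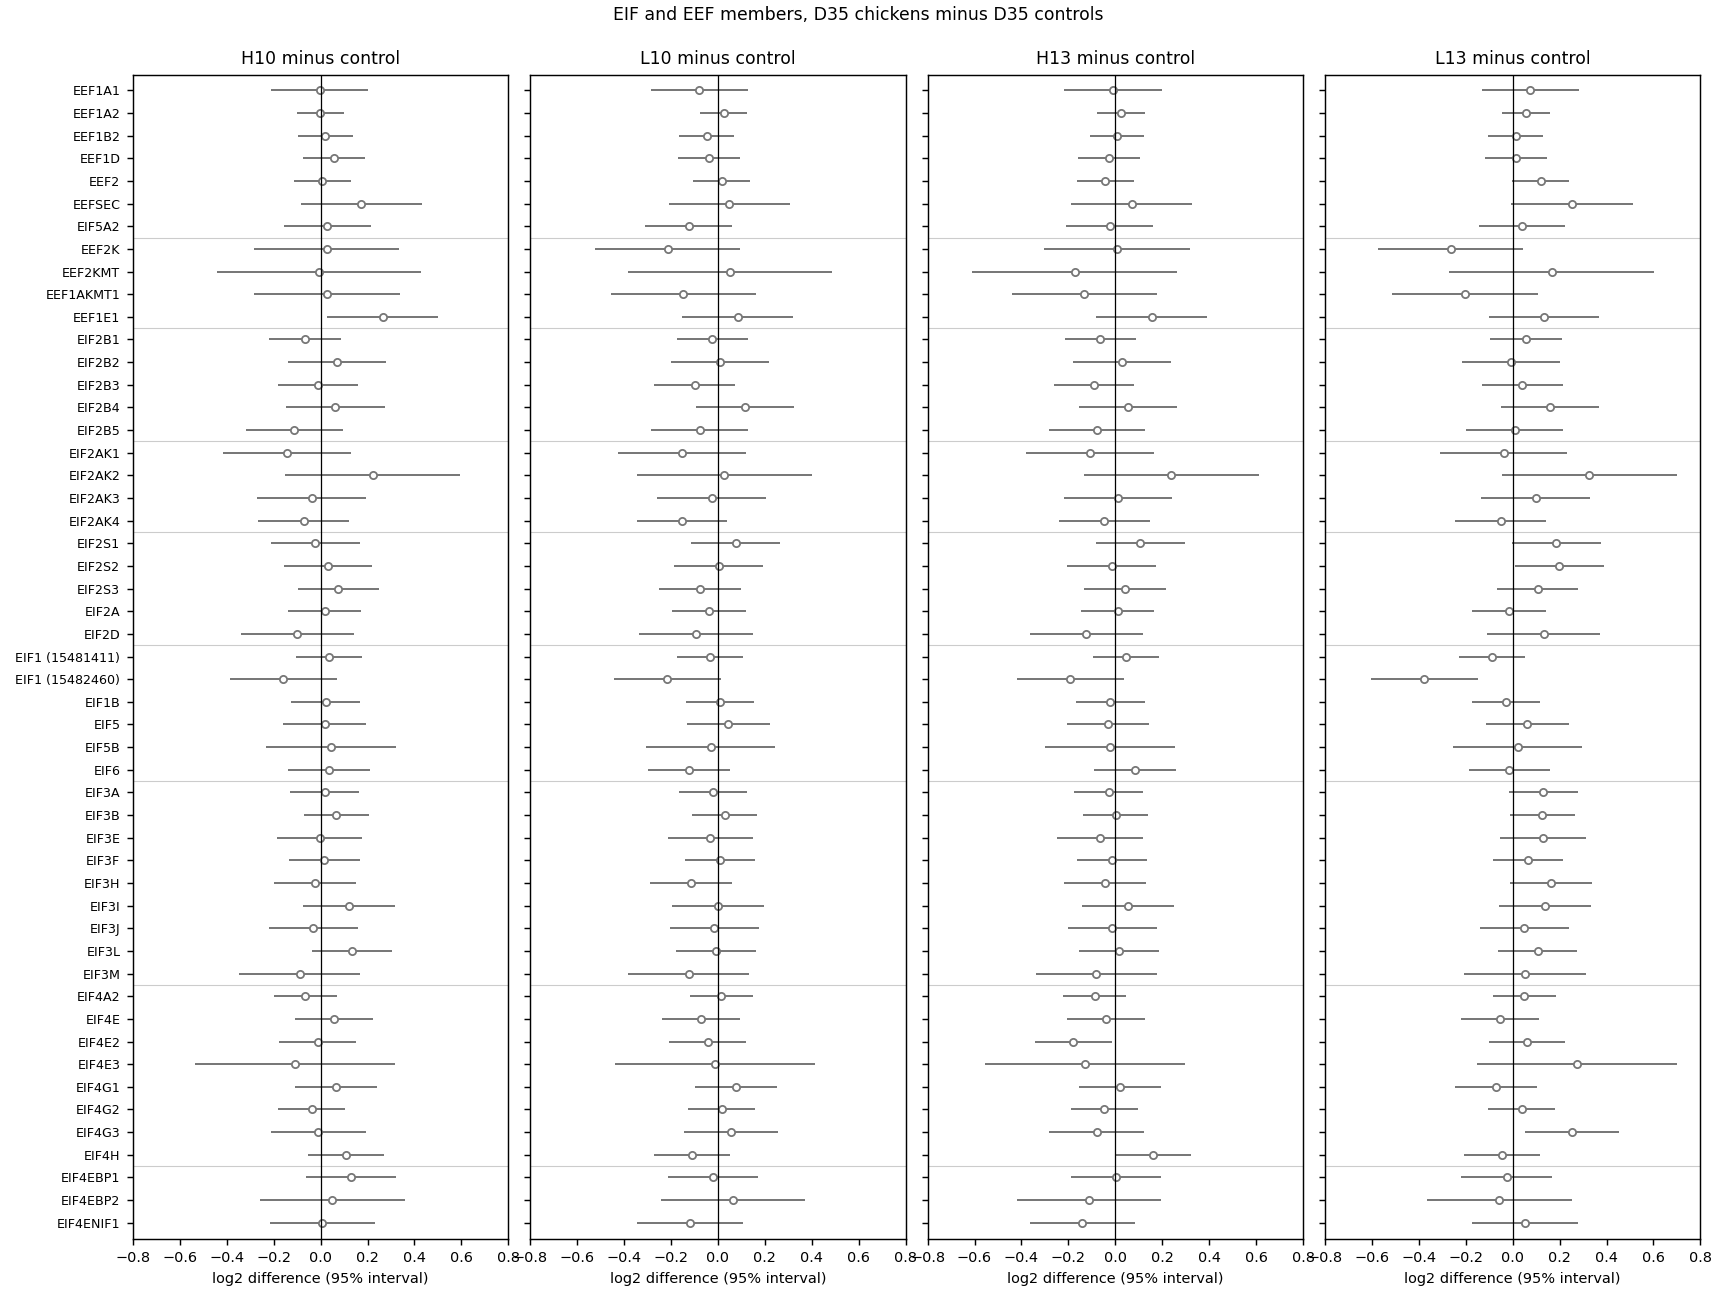
Log2 differences (x axis) of the 51 EIF and EEF probe sets (rows, by role) between D35 chickens of 4 treatments and the D35 controls, with 95% intervals from limma; open points did not reach an adjusted p of 0.05. All points are open.

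EEF1A2 ranged from 13.23 to 13.47 (median 13.38) in H10, 13.28 to 13.51 (median 13.40) in L10, 13.21 to 13.51 (median 13.43) in H13 and 13.36 to 13.52 (median 13.42) in L13 chickens, against 13.31 to 13.44 (median 13.38) in controls. EEF2K ranged from 9.89 to 10.46 (median 10.22) in H10, 9.07 to 10.33 (median 10.05) in L10, 9.86 to 10.48 (median 10.17) in H13 and 9.38 to 10.27 (median 10.05) in L13 chickens, against 9.67 to 10.48 (median 10.29) in controls. All treated groups overlapped the controls in both genes. The within-group SD at D35 was 0.30 for EEF2K and 0.07 for EEF1A2. EIF2B4 had medians of 9.30 in H10, 9.44 in L10, 9.32 in H13 and 9.43 in L13 chickens, against 9.21 in controls.

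The smallest p of a member at D35 was found in L13 chickens. EIF1 probe set 15482460 ranged from 5.49 to 6.10 (median 5.86) in L13 chickens, against 5.95 to 6.63 (median 6.20) in controls, a difference of -0.38 (95% interval -0.60 to -0.15, limma adjusted p = 0.166). All 8 L13 chickens lay below the control mean, and all values were under the background level of 9.49. EIF1 probe set 15481411 ranged from 10.87 to 11.09 (median 10.98) in L13 chickens, against 10.86 to 11.26 (median 11.06) in controls, a difference of -0.09. EIF4G3 ranged from 9.31 to 9.86 (median 9.55) in L13 chickens, against 9.05 to 9.60 (median 9.32) in controls, a difference of 0.25 (adjusted p = 0.266). EIF2S2, EEF2 and EIF2S1 had differences of 0.20, 0.12 and 0.19 (adjusted p between 0.356 and 0.391). The D35 means of EIF4G3, EIF2S2 and EIF2S1 (9.37, 9.22 and 9.05) also lay under the background level. The mean of 6 adipocyte marker probe sets ranged from 8.49 to 9.68 in L13 chickens, against 7.93 to 8.91 in controls and 7.84 to 9.22 in L10 chickens, and its part in these differences was not tested. In L10 chickens EIF1 probe set 15482460 also had the smallest p (-0.22, limma adjusted p = 0.814).

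Set against L10 chickens, 42 of the 51 members had a higher mean in L13 chickens, with a median difference of 0.10 against 0.07 over all probe sets, of which 65.2% were higher. With arrays centred on their median 28 of 51 were higher (47.0% of all probe sets), and with quantile normalization 31 (49.4%). Without the arrays that stand apart 39 were higher, and the share of all probe sets was not computed there. All 9 eIF3 subunits, 7 elongation factors, 5 members of the eIF2 and initiator tRNA group and 4 eIF2 kinases had a higher mean in L13 than in L10 chickens. With quantile normalization 9, 7, 4 and 3 of them did, and with arrays centred on their median 7, 4, 4 and 4. As deposited, 7 of 8 cap binding and eIF4F members and 4 of 5 eIF2B subunits also had a higher mean. So did 3 of 6 start site and subunit joining factors, 2 of 4 elongation regulators and 1 of 3 eIF4E inhibitors. EIF3H ranged from 11.20 to 11.59 (median 11.39) in L13 chickens, against 10.92 to 11.42 (median 11.06) in L10 chickens, a difference of 0.28 (95% interval 0.11 to 0.45) that did not pass (limma adjusted p = 0.592). Set against H10 chickens, 13 of the 51 members had a higher mean in H13 chickens and 38 a lower one, with a median difference of -0.03 against 0.01 over all probe sets, of which 53.1% were higher. With arrays centred on their median 10 were higher (49.8% of all probe sets) and with quantile normalization 14 (50.2%). All 4 eIF2 kinases were among the higher members under each of these scalings, but as deposited their differences were only 0.02 to 0.05. Their within-group SDs at D35 were 0.18 to 0.37, and their D35 means lay under the background level.

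In the warm groups at D35, EEF1E1, a part of the complex of tRNA synthetases, had a difference of 0.26 in H10 chickens against controls (95% interval 0.03 to 0.50, limma adjusted p = 1.0). EIF4E2, a cap binding relative of eIF4E, ranged from 10.31 to 10.48 (median 10.37) in H13 chickens, against 10.31 to 10.80 (median 10.56) in controls and 10.38 to 10.79 (median 10.56) in H10 chickens. All 8 H13 chickens lay below the mean of either group. Its differences of -0.18 and -0.17 did not pass (limma adjusted p = 1.0 each), and EIF4H, a cofactor of eIF4A, had one of 0.16 against the controls (adjusted p = 1.0).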

How the data were processed

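Hind muscle RNA of 48 embryos and 40 D35 chickens was hybridised to Affymetrix chicken gene arrays, 1 per bird. The authors deposited log2 values that were already normalized, by a method not given in the sources used here, and the submitters' processing notes name GCOS 1.1.1. Both deposited tables held the same values. Groups followed the labels.

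The 98 control probe sets were left out. In R 4.3.3, limma 3.58.1 fitted a mean per group within each stage (eBayes, no filter on level), with Benjamini-Hochberg adjustment over 20706 probe sets within each of 15 comparisons, with a threshold of 0.05. Correlations were tested by exact permutation in scipy 1.17.1. Symbols came from the platform annotation. Of the 51 members 50 were found in a RefSeq gene table, 0 of them on Z or W, and EEF1D was not. The 8 arrays per group limit the precision, and the fit was tested on simulated data.

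Members, roles, gene lists and tests were chosen with earlier results of these data known. The core factors were named whatever their values, with up to 12 members per direction past the threshold in a comparison or, where fewer than 6 passed, the 6 with the smallest p. Alternatives were quantile normalization, median centring, a filter on dim probe sets, 1 probe set per symbol, other moderation, fewer groups in the fit, covariates (W-linked genes, epidermis markers, number series), other controls and leaving out arrays. Leaving out the 5 arrays that stand apart, and the number series as a covariate at D35 (there a split by the order of the records), were chosen after the data were seen.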

Additional observations from a re-analysis of the deposited data

Results flagged for a closer look

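In 31 of 561 sets of 8 values (5.53%), each of 1 member in 1 group, a single bird stood far from the other 7 by Dixon's test at the 95% level, which chance gives in about 1 in 20. All values are on the log2 scale. L10 embryo replicate 59, an array low over all probe sets, was far below the others in EIF5B (9.14, others from 9.56), EIF3J (9.43, others from 9.95), EEFSEC (8.97, others from 9.29), EIF4ENIF1 (8.94, others from 9.21), EIF4G3 (10.49, others from 10.66) and EIF2AK3 (9.22, others from 9.46). C10 embryo replicate 65, also low over all probe sets, was so in EIF3J (9.20, others from 9.88), EIF4EBP1 (10.75, others from 10.91), EIF3M (11.31, others from 11.68) and EIF4G2 (12.64, others from 12.82).

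Other low embryos were C13 replicate 39 in EIF5B (9.03, others from 9.55) and EIF4H (10.96, others from 11.20), H13 replicate 36 in EIF2D (8.66, others from 8.98) and EIF2B4 (9.34, others from 9.62), H13 replicate 26 in EIF1B (11.22, others from 11.33), L10 replicate 57 in EIF1 probe set 15482460 (6.76, others from 7.02) and H10 replicate 13 in EIF4G2 (12.62, others from 12.76). C10 replicate 70 was far above the others in EIF6 (10.86, others up to 10.63) and EIF4E (12.12, others up to 11.86).

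Among D35 chickens, H10 replicate 13 was far below the others in EIF2AK1 (6.09, others from 6.93), EIF2B1 (7.32, others from 7.61) and EIF1 probe set 15482460 (5.54, others from 5.95). H13 replicate 34 was low in EEF2 (12.17, others from 12.39) and EIF3F (11.04, others from 11.25) and high in EIF2S1 (9.46, others up to 9.12). Also low were H13 replicate 58 in EEF1E1 (8.36, others from 8.71), L13_122 in EIF4E3 (7.12, others from 7.68) and control replicate 77 in EIF4E (10.57, others from 10.98). High were H10 replicate 67 in EIF3J (11.13, others up to 10.82), L10_145 in EIF3E (11.29, others up to 10.98) and L13_178 in EIF2AK3 (7.93, others up to 7.57).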

How the results depend on the processing

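No member passed in any treatment, interaction or D35 comparison under any alternative tried, leaving out each array included. In C13 against C10 embryos 6 members rose and 14 fell with arrays centred on their median (13.4% and 18.3% of all probe sets). There 18 fell with quantile normalization (20%), and 5 rose and 5 fell within number series 2. With the epidermis markers as a covariate 5 rose and 11 fell in C13, 6 rose and 8 fell in L13, and 6 rose and 11 fell in H13 embryos. With quantile normalization 21 fell in H13 against H10 (18.2% of all probe sets) and 10 in L13 against L10 embryos (16.4%). Leaving out single arrays, 2 to 6 rose and 10 to 12 fell in H13, 3 to 6 rose and 4 to 7 fell in L13, and 3 to 6 rose and 8 to 11 fell in C13 embryos. The number that rose differed by over 1.5 times without H13 replicate 26 or 28 or H10 replicate 13, 14 or 16 (2 each), without H13 replicate 29 or 32 (3 each), without L10 replicate 61 (3), and without C13 replicate 39 or 40 (6 each) or C10 replicate 70 (5). In C13 embryos EIF3J (0.35) and EIF3I (-0.16) did not pass within number series 1, nor EIF6 (-0.23) and EIF4E3 (-0.24) within series 2. Without the 5 arrays that stand apart 7 rose and 11 fell in H13, 6 rose and 8 fell in L13, and 3 rose and 10 fell in C13 embryos. Shares over all probe sets were computed only for the values as deposited, quantile normalization and median centring. The counts under the remaining alternatives therefore cannot be set against the array. The difference of EIF4A2 in H13 chickens against controls at D35 (-0.0883) changed sign, to 0.0321, with the number series as a covariate and against the controls of the same series. At D35 the animal numbers alone do not separate 2 series, and the series used there was taken from the order of the records, not from a label. The causes were not tested. The calls of EEF1A2, EEF2K, EIF2B4 and EIF4G3 passed at each temperature under every alternative tried. No paired analysis was possible because each bird gave 1 array and the groups compared hold different birds. The other scalings moved the median difference of all probe sets by at most 0.08 on the log2 scale.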
